A study of Homo sapiens with 2 samples.

Results

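In the messenger RNAs of HEK293 cells, 562 of the 2054 sites at which YBX1 was crosslinked to RNA were annotated as exon, in 473 genes. They were stretches of 15 to 42 nt made mostly of A, C and U, with G at 6.67% of their bases, and the tetramer CAAC stood in 41.6% of them. These sites are called exon sites here. They were chosen by the authors' HOMER annotation (class exon, which stood for coding sequence) and by a distance of at most 60 nt between the listed start and end. The limit removed none of the class. The widest exon site lay in GSK3A, a kinase gene, and spanned 42 nt, and the shortest site of any class beyond the limit spanned 112 nt.

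YBX1 is a cold-shock domain protein that binds messenger RNA in the cytoplasm and packages it into ribonucleoprotein particles. It is known for acting on the stability and the translation of the messages it binds, and for a preference for RNA rich in C and A. Bound RNA within a coding sequence is also read by the ribosome, so that its bases are set by the codons of the protein, which is not so in a 3′UTR.

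Both replicates belonged to 1 group and were pooled by the authors into a single list, so that no spread between replicates could be given and no site had a read count or a score. HEK293 is a human embryonic kidney line. The methods give the cells as a stable T-REx HEK293 Flp-In line in which FLAG/HA-tagged YBX1 was overexpressed and pulled down through its tag. They were fed 4-thiouridine, which replaces uridine in new RNA and crosslinks to protein under long-wave UV light. The sample labels, by contrast, name an antibody against YBX1 itself (D2A11). There was no sample without YBX1 or without the tag. The RNA was cut with RNase T1, which cleaves after G, and protein-RNA complexes were cut from a gel by size, so that the width of a site and the G at its ends cannot be told apart from these steps.

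The first sequences shown are those of TASOR2, the gene with the most exon sites, and of MED13. They are DNA letters of GRCh38, 5′ to 3′ on the strand of the site, with T for the U of the RNA. Capitals mark any of the 10 tetramers with the largest excess in exon sites over windows of the same coding sequences (led by CAAC and named below with their values). TASOR2, a relative of a subunit of the HUSH silencing complex, held 8 exon sites and no other site, all between exons 11 and 16 of 21 in the annotated transcript. Its widest site (31 nt) is not printed.
TASOR2 at chr10:5731147-5731166, plus strand: ACTCtcCAACAACTCttaag
TASOR2 at chr10:5740447-5740468, plus strand: caaatatacCAACAACccactg
TASOR2 at chr10:5747275-5747299, plus strand: ctctAACAAtatcaccacCTACAAg
TASOR2 at chr10:5748415-5748432, plus strand: CTACattaacccattatg
TASOR2 at chr10:5748570-5748594, plus strand: tcCAACAccaCATCttctctaaaag
TASOR2 at chr10:5749198-5749218, plus strand: cCAACTTctctatAACAAaag
TASOR2 at chr10:5756686-5756707, plus strand: atacactaatCATCATCATCag

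MED13, a subunit of the kinase module of the Mediator complex, held 5 exon sites and 1 site in its 3′UTR. Of the 5 sites, 4 lay within exon 9 of 30 and the other in exon 22. The sites that begin at 62010849 and 61961654 held 6 and 5 of the 10 tetramers.
MED13 at chr17:61961654-61961671, minus strand: ccACTTcCAACATCAACc
MED13 at chr17:62010613-62010635, minus strand: tttttaccacCTCAACTTccaag
MED13 at chr17:62010744-62010764, minus strand: tctttcccacCTCAAtatcag
MED13 at chr17:62010849-62010872, minus strand: actaaAACAcctTCAACTCCTCAg
MED13 at chr17:62011152-62011172, minus strand: CAACAACAAatACTTcctaag

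In the splicing factors, the sites ran from sequences filled with these tetramers to sequences without any. PRPF8, the central protein of the spliceosome, held 3 exon sites, and its site in exon 11 of 43 held 7 of the 10 tetramers. SON, a protein of nuclear speckles, held 4 exon sites within its exon 3 of 7 and 1 site of another class, and the first of its exon sites held none of the 10. SRRM2, a scaffold of the same speckles, held 3 exon sites within exon 11 of 15.
PRPF8 at chr17:1656529-1656552, minus strand: ACTTccccaatattgtCATCAAag
PRPF8 at chr17:1658320-1658341, minus strand: cCATCttCATCtTCAACccacg
PRPF8 at chr17:1679041-1679060, minus strand: aCTACAACTTCAACCTCAAg
SON at chr21:33553556-33553576, plus strand: aatcgactgtgacagtttcag
SON at chr21:33554117-33554137, plus strand: atttatctttAACTACTCAAg
SON at chr21:33554231-33554254, plus strand: atttacCATCtaataataaccttg
SON at chr21:33554687-33554705, plus strand: ACTCttcattaagatctcg
SRRM2 at chr16:2763705-2763724, plus strand: ACAAtCTCAAACTTcaccag
SRRM2 at chr16:2763792-2763813, plus strand: caaatCTCAAACATCacctaag
SRRM2 at chr16:2763950-2763970, plus strand: ACTCttcttcatatcCTACag

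Further genes with 3 exon sites code for proteins that bind RNA or build ribosomes, and for proteins of the membrane and of mitosis. ZFR, a zinc finger protein that binds RNA, and RPF1, a factor of ribosome assembly, belong to the first group. In RPF1 a pair of sites lay 32 nt apart from start to start in exon 4 of 9, the closest pair found in any gene, and each held 5 of the 10 tetramers.
ZFR at chr5:32403352-32403371, minus strand: taaacccattcCATCAACAg
ZFR at chr5:32406960-32406979, minus strand: CATCttcCTACtaTCAACAg
ZFR at chr5:32417717-32417738, minus strand: caataCTACCAACAACCAACAg
RPF1 at chr1:84489664-84489683, plus strand: cttcttACTTCAACAAACAg
RPF1 at chr1:84489696-84489714, plus strand: attCTCATCACAACATCag
RPF1 at chr1:84495927-84495943, plus strand: aataattttACAACAcg

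The other group comprises CLTC, the clathrin heavy chain, FAT1, a giant cadherin, SLC38A2, an amino acid transporter with 2 further sites in its 3′UTR, and MASTL, the Greatwall kinase of mitotic entry. The site of FAT1 that begins at 186708142 held 7 of the 10 tetramers, and its neighbour that begins at 186617089 held 1. MCM4, a subunit of the replicative helicase, held 3 exon sites as well, which are not printed.
CLTC at chr17:59661502-59661523, plus strand: TCAAACTTctcctCTACTTcag
CLTC at chr17:59682992-59683014, plus strand: aagAACTTaTCAACTACtatcag
CLTC at chr17:59683183-59683205, plus strand: ctattctatACTCtaaatttaag
FAT1 at chr4:186609263-186609283, minus strand: aCATCcaCTACTCAAttatag
FAT1 at chr4:186617089-186617111, minus strand: ACAAttaccttcttactatcacg
FAT1 at chr4:186708142-186708164, minus strand: CTACAAttACTCTCAAtAACTTg
SLC38A2 at chr12:46363102-46363125, minus strand: cttcatacCTACTCttctatcttg
SLC38A2 at chr12:46364389-46364416, minus strand: acCTCActattttatttTCAACTCAcag
SLC38A2 at chr12:46371195-46371220, minus strand: ACTTCAACTACTCCTACcccaccaag
MASTL at chr10:27167145-27167166, plus strand: tctAACTTctaatttACTCcag
MASTL at chr10:27167202-27167225, plus strand: TCAAtcccacaccttcatatccag
MASTL at chr10:27170062-27170083, plus strand: ctctttctcccattcatAACAg

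Of the genes named for the study, NFE2L1, the transcription factor that raises proteasome genes, held 2 exon sites in its last exon. CBX5, the heterochromatin protein HP1-alpha, held no exon site, whereas the authors report YBX1 binding in its 3′UTR. YBX1 itself held 1, in exon 5 of 8, and this site held none of the 10 tetramers and the run of 4 G shown here. Since the cells overexpressed a tagged YBX1, reads of this site from the transgene and from the endogenous gene cannot be told apart.
NFE2L1 at chr17:48058372-48058399, plus strand: ccttgccccCAACACTCcCATCAAtcag
NFE2L1 at chr17:48059038-48059059, plus strand: ccACAACcacacatACAACAtg
YBX1 at chr1:42696728-42696754, plus strand: ctatccacgtcgtaggggtcctccacg

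The label exon was checked against GENCODE release 44, by the midpoint of each site on its own strand. A coding exon of at least 1 transcript held 554 of the 562 sites (98.6%, 95% Wilson interval 97.2 to 99.3). When 1 transcript per gene was used, 544 sites (96.8%) lay in coding sequence. In the order fixed for the check, which takes a 3′UTR of any transcript before a coding exon, 404 sites (71.9%, interval 68.0 to 75.4) were coding and 150 (26.7%) fell in a 3′UTR, which only 6 (1.07%) did in the selected transcripts. The label thus stood for coding sequence in nearly all exon sites, and the lower share came with transcripts other than the selected one. All of these intervals cover counting error only.

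The other 8 sites lay on the strand opposite to the annotated exon, since HOMER does not use the strand. No exon of GENCODE lay there on the strand of the site, and 1 of the 8 fell within an intron of NDRG2. Their mean G content was 31.0% ± 7.23 (SD, n = 8) and their A and C content 43.2% ± 11.5, against 6.67% ± 6.50 and 65.1% ± 9.96 for all exon sites (n = 562). Of the 10 tetramers they held few, as the 3 shown here from opposite CSNK1A1L, COL5A2 and HOXB7 show, of which only the last has any. These 3 were chosen after their values were seen.
Opposite CSNK1A1L at chr13:37105022-37105043, plus strand: accagtgcatgtgggggatgcc
Opposite COL5A2 at chr2:189068844-189068864, plus strand: ggaccttcagggcctcgcgcc
Opposite HOXB7 at chr17:48610658-48610676, plus strand: catgttgaaggAACTCggc

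The exon sites were spread thinly over many genes. Of the 473 genes, 417 held 1 exon site, 40 held 2 and 16 held 3 or more. The 417 include NDRG2, whose only site is the one within its intron. In 364 genes every YBX1 site was an exon site, 109 genes also held a site of another class, and 77 of these held one in the 3′UTR. Most of the 364 held only 1 YBX1 site, with no further site to compare. There were 81 pairs of neighbouring exon sites within 1 coding sequence, with a median of 436 nt from start to start and a range of 32 to 7305 nt, and 7 pairs lay within 100 nt. In relation to the length of the coding sequence, RPF1 had the most sites among the genes with 3 or more (2.86 per 1000 nt), followed by SLC38A2 (1.97) and ZNF850 (1.53), whereas TASOR2 had 1.10 and FAT1 0.218.

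Within the coding sequence, first exons held few exon sites for their length, internal exons slightly more than their share and last exons about theirs. The authors' exon numbers placed 431 sites (76.7%) in internal exons, 112 (19.9%, interval 16.8 to 23.4) in last exons, 15 in genes with a single exon and 4 in first exons. In 1 GENCODE transcript per gene, which held 532 of the sites wholly within 1 coding exon, the first exon had 3 sites (0.564%, interval 0.192 to 1.64), although it had 5.56% of the length of these coding sequences. Internal exons had 420 (78.9%, interval 75.3 to 82.2) against 73.4% of the length, and last exons 99 (18.6%, interval 15.5 to 22.1) against 19.2%. Of these 99 sites, 34 lay in the zinc finger genes described below, and the ranks were not compared without those genes. HOMER gives sites near a transcript's start or end to classes of their own before it names an exon. With every class of HOMER counted, 575 sites lay in the coding exons of these transcripts, among them 14 of the promoter class, and 6 (1.04%) were in a first exon, so that first exons held few sites with those classes included.

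Along the coding sequence, the first 20% of its length held 64 of the 532 sites (12.03%, interval 9.53 to 15.1) and the last 20% held 85 (15.98%, interval 13.1 to 19.3). The 3 stretches of 20% between them held 128, 119 and 136 (24.1%, 22.4% and 25.6%). An even spread would give 20% in each, which lies above the intervals of both ends and within that of the middle stretch (19.03 to 26.10). Within 100 nt of the end of the coding sequence lay 23 sites, a count not set against the length of that stretch. These counts leave out HOMER's classes for transcript starts and ends, which had 14 and 13 sites in these coding exons. The exons with a site were longer (median 187 nt, 495 exons) than all 5931 coding exons of the same transcripts (median 141 nt). A longer exon also has more room for a site. A site lay a median of 96.5 nt from the start and 90 nt from the end of its exon. A total of 16 sites crossed an edge of an exon or of the coding sequence.

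**Figure D1:**
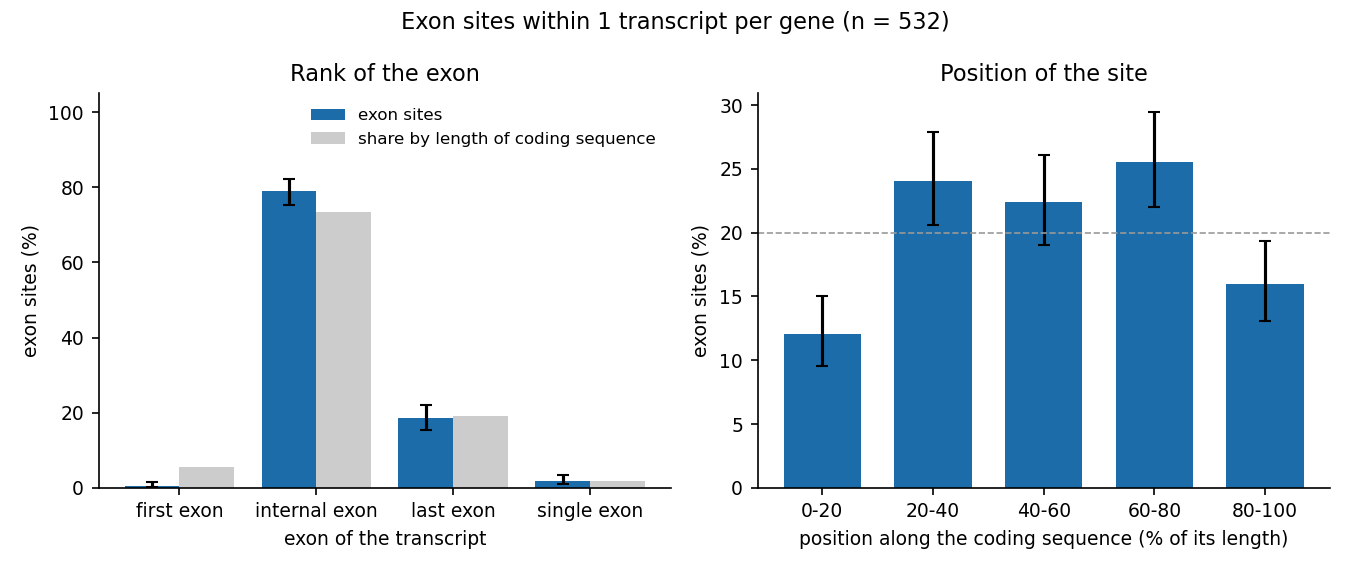
Share of exon sites (vertical axes, percent of 532) by the rank of the exon in 1 GENCODE transcript per gene (left, beside the share of coding length in grey) and by stretches of 20% of the coding sequence (right, dashed line at 20%). Error bars are 95% Wilson intervals, and first exons (0.564% of sites, 5.56% of length) and the first 20% of the coding sequence (12.03%) hold the fewest sites for their length.

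The base content of exon sites was set against windows of the same width and codon phase that began 120 nt away in the same spliced coding sequence. For 537 sites with such a window, mean A content was 33.1% ± 9.98 (SD over sites) in sites and 28.8% ± 11.3 in windows, C content 32.4% ± 8.03 and 22.4% ± 11.0, U content 28.2% ± 8.75 and 24.0% ± 10.2, and G content 6.28% ± 5.68 and 24.9% ± 9.86. A and C together made up 65.5% ± 9.58 of a site and 51.2% ± 11.7 of a window. RNase T1 cuts at G, so low G content cannot be told apart from the cut, and the other bases were also read without G. Of the bases that were not G, C made up 34.7% in sites and 29.8% in windows, A 35.2% and 38.3%, and U 30.1% and 31.9%. Without G, C was thus the base with a higher share in sites than in windows 120 nt away. This difference was hardly seen against windows that also share the marks of RNase T1, which are described below. There, C made up 35.3% of the bases that were not G in 202 sites and 35.0% in their windows.

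The sites had a common layout. The last base was G in 94.3% of exon sites and the base before the site in 88.4%. Since the listed end was read so that this G came last, the first share describes that reading. In the 14 positions from 15 to 2 nt before the last base, G was found in 1.42% to 3.56% of sites. Just before the final G, A stood in 56.6% of sites, and before that C in 43.95%. At 10 nt beyond the last base, G was back at 20.6%. The A and C before the final G were not particular to exon sites. In the 724 sites annotated as 3′UTR they stood in 52.3% and 37.6%.

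**Figure D2:**
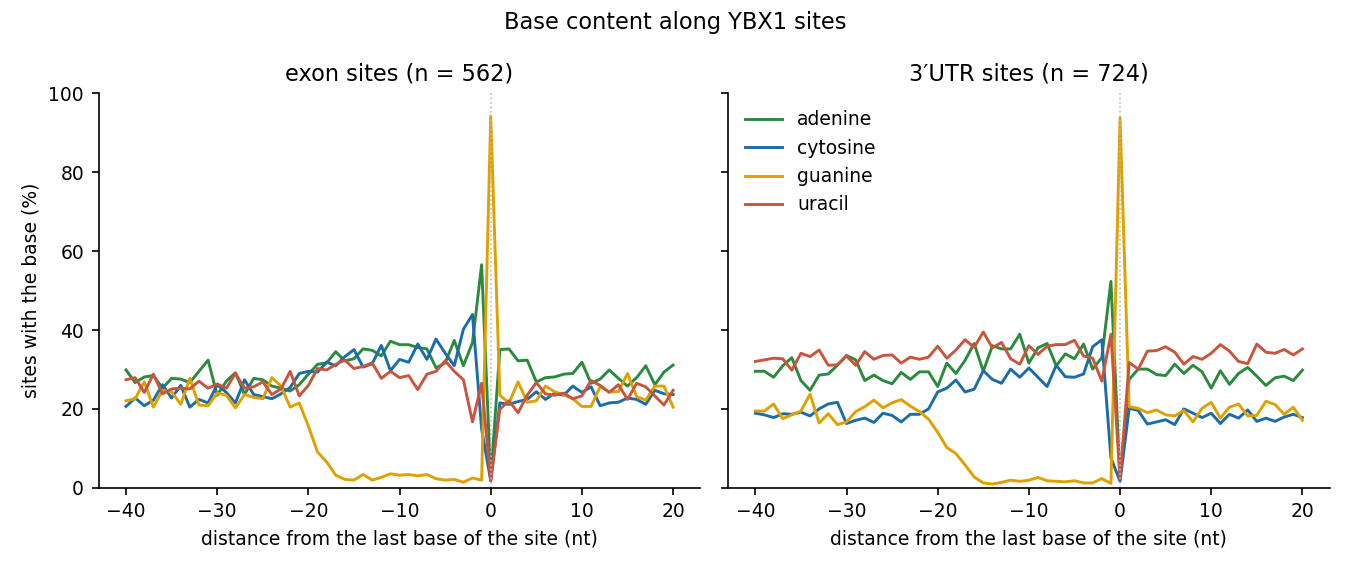
Percent of sites with each base (vertical axis) by distance from the last base of the site in nt (horizontal axis), for 562 exon sites (left) and 724 3′UTR sites (right). In both, guanine peaks at the last base (94.3% and 93.8%) and is nearly absent before it, and over the 14 positions from -15 to -2 nt uracil averages 28.3% in exon sites, where it is highest at none, and 34.7% in 3′UTR sites, where it is highest at 6 and adenine at 6.

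Each of the 256 tetramers was compared between the 537 sites and their windows with a two-sided exact McNemar test on presence, with Benjamini-Hochberg adjustment over all 256. Of these tetramers 75 (29.3% of those tested) were more frequent in sites and 149 (58.2%) less frequent, so that most tetramers differed and the order by size says more than the call. CAAC, with an exact McNemar adjusted p of 1.56e-33, was held by 42.6% of sites against 9.12% of windows. AACA was held by 40.4% against 10.6% (exact McNemar, adjusted p = 3.33e-27), and TCAA by 34.1% against 8.94% (adjusted p = 1.30e-21). ACAA (33.9% and 9.68%), CATC (31.8% and 7.82%), CTAC (29.6% and 5.96%), AACT (30.4% and 9.12%), CTCA (30.2% and 8.94%), ACTC (27.6% and 6.70%) and ACTT (26.6% and 5.96%) followed, each with an adjusted p of 9.13e-17 or less. All 10 lack G, and several, such as CAAC with AACA, overlap one another. Among the 537 pairs, 496 sites and 257 windows had at least 1 of the 10, a difference that follows from how the 10 were chosen.

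**Figure D3:**
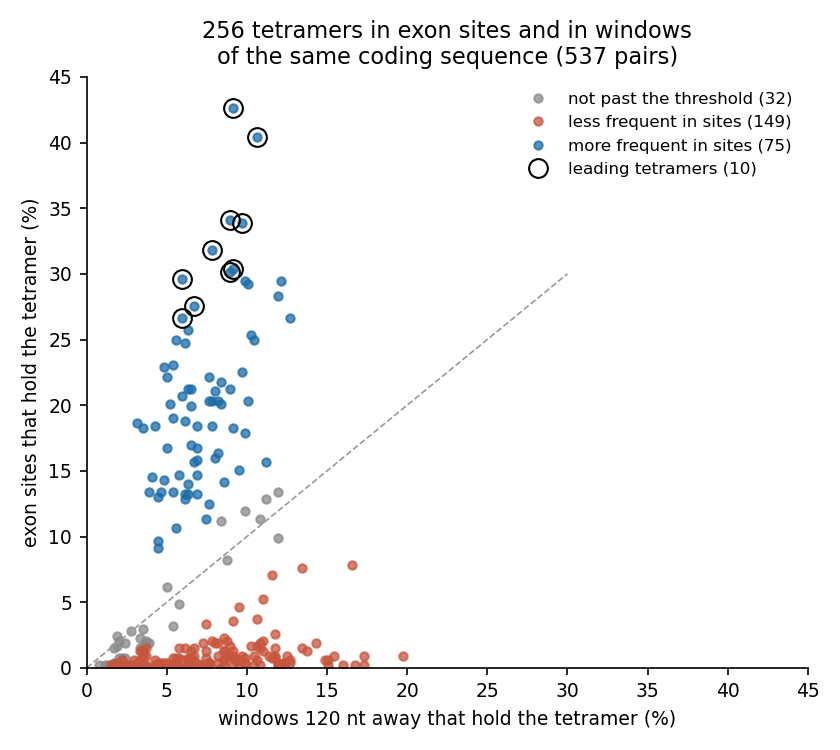
Each point is 1 of 256 tetramers, by the percent of windows 120 nt away (horizontal axis) and of exon sites (vertical axis) that hold it, over 537 pairs. The 10 leading tetramers (black circles) stand in 26.6% to 42.6% of sites and in 5.96% to 10.6% of windows, above the dashed line of equal frequency, while the 149 less frequent tetramers lie near the bottom.

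Most of this excess was not found against windows that share the marks of RNase T1. For 202 sites, the nearest window in the same coding sequence that follows a G, ends in G and holds as many other G as the site could be taken. In these, A and C made up 65.1% ± 9.51 of a site and 64.2% ± 11.4 of a window, so that base content hardly differed. In the same exact McNemar test, 4 tetramers were more frequent in sites and 3 less frequent. The 4 were CAAC (43.6% of sites and 22.3% of windows, adjusted p = 0.00111), AACA (39.1% and 21.3%, exact McNemar adjusted p = 0.00713), and TACT (25.7% and 11.9%) and TTAC (23.8% and 9.90%), both with an adjusted p of 0.0190. Crosslinking was through 4-thiouridine, and neither kind of window had to hold a U. An excess of words with U, such as TACT and TTAC, cannot be told apart from this step. In the exact test, lower in sites were TTTC (8.42% and 22.3%, adjusted p = 0.0109) and CCCT (6.44% and 18.3%, adjusted p = 0.0190), with 1 other. With nearly the same number of pairs, 201 of these sites against their windows 120 nt away (added after the data were seen) gave 61 tetramers more frequent and 95 less frequent. Of the 10 leading tetramers, CAAC and AACA passed against both kinds of window. The other 8 passed only against windows 120 nt away, and against RNase T1 windows their excess was 1.49 to 11.4 percentage points (exact McNemar, adjusted p from 0.157 to 1).

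Since the sites lie in coding sequence, their bases are also codons. The first base of a site was at codon position 1, 2 and 3 in 29.9%, 41.4% and 28.8% of 532 sites, and the last base in 36.8%, 24.6% and 38.5%. Over 3740 codons in sites and as many in windows, AAC (asparagine) made up 6.50% and 2.09%, TAC (tyrosine) 4.79% and 1.07%, ATC (isoleucine) 4.71% and 1.76% and ACA (threonine) 4.47% and 1.42%. Codons for threonine reached 12.9% in sites against 5.11% in windows, and those for isoleucine 10.03% against 4.33%. The glutamate codons GAA (0.0802% and 4.36%) and GAG (0.107% and 3.40%) were nearly absent from sites, as were other codons that begin with G. These shares are counts over sites and were not tested, and a choice of codons cannot be told apart here from the cut of RNase T1.

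The nearest class of sites for comparison is that of the 724 sites annotated as 3′UTR under the same limit of width, which went through the same cut. Exon sites were richer in C and poorer in U. Of the exon sites 61.9% (interval 57.8 to 65.8) held at least 30% C, against 34.5% (31.2 to 38.1) of the 3′UTR sites (Fisher's exact test, adjusted p = 5.51e-22). In the same exact test, at least 30% U was found in 42.9% (38.9 to 47.0) against 70.0% (66.6 to 73.3, adjusted p = 5.51e-22), and at least 60% A and C in 73.5% (69.7 to 77.0) against 51.9% (48.3 to 55.6, adjusted p = 7.46e-15). Mean C content was 32.2% ± 8.11 (SD, n = 562) in exon sites and 26.8% ± 9.10 (n = 724) in 3′UTR sites, mean U content 28.2% ± 8.77 and 34.4% ± 9.15, and mean A content 32.9% ± 10.04 and 32.8% ± 9.69. The sequence around the sites differed in the same direction. Windows 120 nt away held 22.4% C and 24.0% U in the coding sequence, and 18.4% C and 32.4% U in the 3′UTR (689 sites with a window in the same exon, a set added after the data were seen). Its part in the difference was not tested.

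The same test on each of the 256 tetramers gave 29 (11.3%) more frequent in exon sites and 17 (6.64%) less frequent, at an adjusted p under the threshold of 0.05. In Fisher's exact test, the 5 with the largest excess were CAAC in 41.6% of exon sites against 21.1% of 3′UTR sites (adjusted p = 3.51e-13), TCAA in 33.5% against 16.7% (2.73e-10), CTCA in 29.9% against 17.0% (1.53e-06), ACAA in 33.5% against 21.0% (1.58e-05) and CTAC in 29.4% against 18.1% (4.95e-05). All 5 were also among the 10 with the largest excess over coding windows. Both comparisons used the same exon sites, so this overlap is not separate support. Against RNase T1 windows, only CAAC of the 5 passed the threshold. The 5 lowest held A, U or both beside at most 1 C, with TTTT in 4.804% against 21.8% (3.34e-17), TTAA in 14.2% against 31.4% (3.65e-11), TTTA in 12.6% against 28.7% (9.41e-11), TAAA in 12.1% against 25.7% (3.94e-08) and CTTT in 14.8% against 28.5% (1.41e-07).

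Exon sites were also more often unique in the genome. The sequence of only 5 exon sites (0.890%, interval 0.381 to 2.07) occurred at more than 1 place outside the alternate contigs, against 93 (12.8%, interval 10.6 to 15.5) of the 3′UTR sites (Fisher's exact test, adjusted p = 3.58e-18). The 5 were in TMEM60, whose site was the shortest (15 nt) and found at 9 places, and in EP300, FASTKD5, PARP1 and RLF, each found at 2. Reads of such sites cannot be assigned to 1 place. Exon sites shared their gene less often with a site of their own class. Of them, 24.6% had another exon site in the gene, against 35.4% of 3′UTR sites with another of their class (Fisher's exact test, adjusted p = 6.56e-05). Sites of 1 gene hold this property together but were counted as separate units, so this p-value does not measure a difference between genes. The same limit applies to a site of another class in the same gene. The base before the site was G in 88.4% against 83.4% (Fisher's exact test, adjusted p = 0.0215), a call that was lost in 5 of the 7 other settings tried. Exon and 3′UTR sites were not told apart in Fisher's exact test by a width of at least 25 nt (26.7% and 23.5%, adjusted p = 0.242), by a final G (94.3% and 93.8%, adjusted p = 0.724), by a site of another class in the same gene (24.9% and 20.6%, adjusted p = 0.0988) or by an authors' gene name that differed from the gene on the strand (3.74% and 5.11%, adjusted p = 0.310). The last pair of properties depended on the classes. When GENCODE classes were used, a site of another class was 17.7 percentage points more frequent in coding sites, a differing name differed by -14.2 points, and both passed the threshold.

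**Figure D4:**
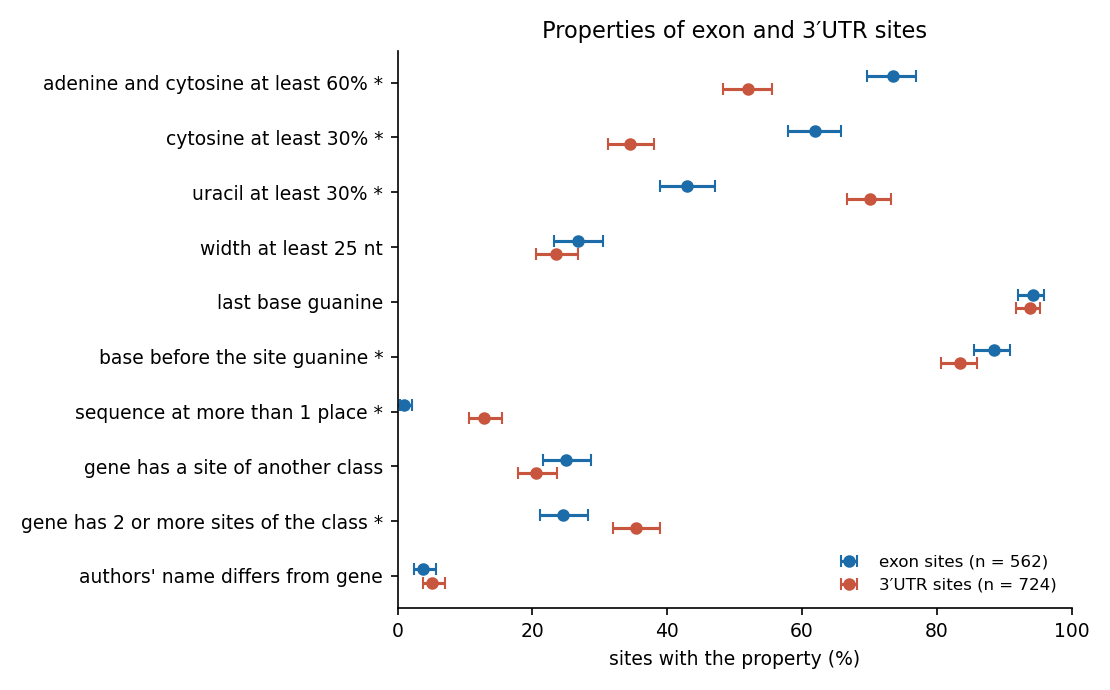
Percent of exon sites (562) and 3′UTR sites (724) with each of 10 properties, with 95% Wilson intervals, where a star marks an adjusted p under 0.05 in Fisher's exact test. Cytosine of at least 30% (61.9% and 34.5%) and uracil of at least 30% (42.9% and 70.0%) lie farthest apart, and a final guanine (94.3% and 93.8%) is alike.

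The genes with exon sites were then counted in 15 lists of genes. Expression in these cells was not used here, so a share of a list counts genes whether or not their messages were present, and no list was tested. Among all 20020 protein-coding genes 473 (2.36%, NDRG2 with its intron site included) held an exon site, as did 37.2% of the 1271 of them with any YBX1 site. The 14 lists of widely expressed genes held 640 genes, of which 94 (14.7%) had an exon site, or 51.1% of the 184 with any site. The lists below are ordered by the share of all their genes, and the order differs among genes with any site. There, respiratory chain genes had 66.7% (of 6), cell cycle genes 61.1% (of 18), chromatin genes 58.8% (of 17) and splicing factors 48.4% (of 31). The range was from 25% for glycolysis (of 4) to 83.3% for aminoacyl-tRNA synthetases (of 6).

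Nuclear pore, lamina and transport genes (10 of 40, of 16 with any site) and aminoacyl-tRNA synthetases, the enzymes that charge tRNA (5 of 20, of 6 with any site), had the highest shares, 25% each. TMPO, a lamina protein, and XPO1, the exporter of proteins with a nuclear export signal, held 2 exon sites each, and KPNB1 and KPNA3, importins, 1 each. TARS1, the threonyl-tRNA synthetase, held 2, and KARS1, MARS1 and NARS1 held 1 each. Splicing factors followed with 15 of 64 genes (23.4%, of 31 with any site), with 4 exon sites in SON, 3 each in PRPF8 and SRRM2, and 2 in SF3B3. Chromatin genes had 10 of 48 (20.8%), with 8 sites in TASOR2 and 2 each in ADNP and RBBP7, and 1 in ATF7IP, a partner of the methyltransferase SETDB1.

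Cell cycle and replication genes had 11 of 56 (19.6%), where MCM4 held 3 sites and BUB1B, CCNB1 and CDK1 1 each. Cytoskeleton and motor genes had 8 of 44 (18.2%), with 2 sites in TUBB, a beta-tubulin, and 1 each in DYNC1H1, IQGAP1 and MAP1B. Both TUBB sites occurred at 1 place outside the alternate contigs. Genes of mRNA-binding proteins had 11 of 62 (17.7%), with 2 sites each in G3BP1, the stress granule protein, and NUFIP2. Translation factors had 5 of 45 (11.1%, EIF4G2 with 2, and EEF2, EIF2A and EIF2S1 with 1), and nuclear-encoded respiratory chain genes 4 of 36 (11.1%, ATP5F1A, ATP5F1C, COX5A and SDHB with 1 each).

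Membrane trafficking genes had 4 of 40 (10%, CLTC with 3, and AP2M1, RAB10 and RAB7A with 1), genes of the proteasome and ubiquitin system 4 of 50 (8%, NFE2L1 with 2, and PSMB2, PSMC4 and VCP with 1), and chaperones 3 of 41 (7.32%, HSP90AA1 with 2, and DNAJA2 and HSP90AB1 with 1). Glycolysis had 1 of 17 (5.88%, LDHB). Cytosolic ribosomal proteins had 3 of 77 (RPLP0, RPS14 and RPS4X with 1 each), of 10 with any site, and this share of 3.90% lay near the 2.36% of all protein-coding genes. Of the 35 genes of other tissues none held a site, a list of genes that kidney cells are not known to express.

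**Figure D5:**
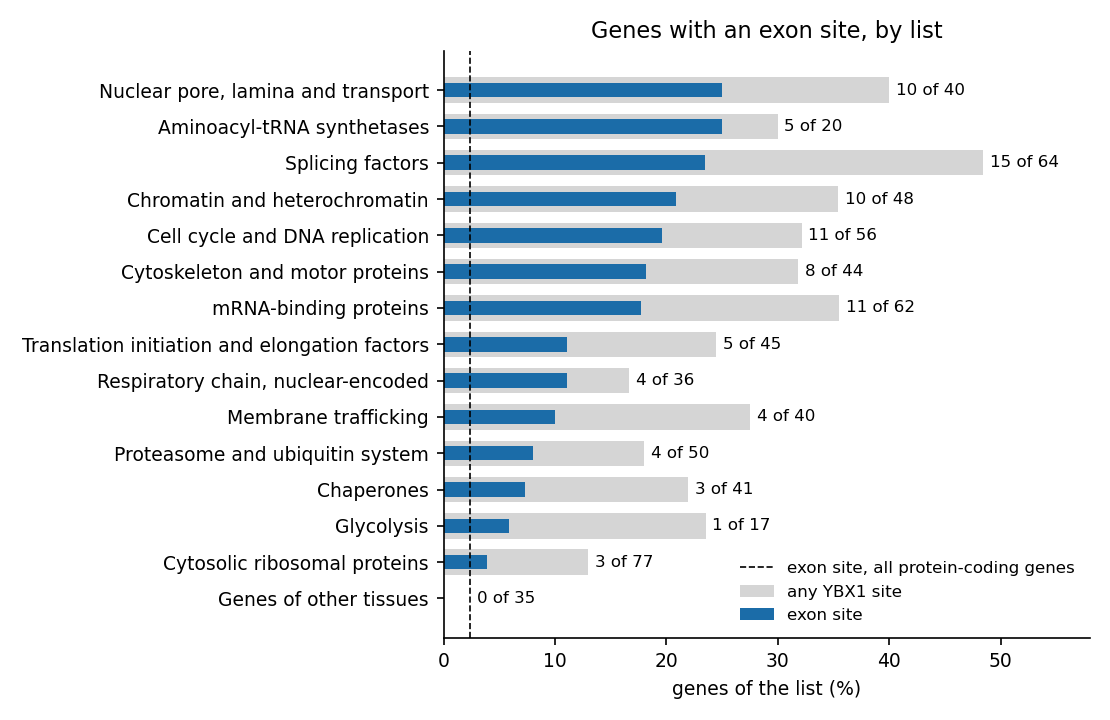
Percent of the genes of each list (horizontal axis) with an exon site (blue) and with any YBX1 site (grey), with the number of genes with an exon site beside each bar and a dashed line at 2.36%, the share of all protein-coding genes with an exon site. Nuclear pore genes and aminoacyl-tRNA synthetases reach 25%, ribosomal proteins 3.90% and genes of other tissues 0.

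Genes of zinc finger proteins were among those with exon sites. These genes, taken by a symbol of ZNF, ZFP, ZSCAN or ZKSCAN and a number after their sites were seen, held 38 of the 562 exon sites (6.76%, interval 4.97 to 9.14) in 29 genes, and 27 of the 724 3′UTR sites (3.73%, interval 2.58 to 5.37). Of all 2054 sites they held 81 (3.94%, interval 3.18 to 4.87). The share of such symbols among all protein-coding genes was not counted, and no test was made. On chromosome 19 lay 29 of the 38, of 47 exon sites on that chromosome. The last exon held 34 of the 37 that lay in a selected transcript, whereas last exons held 99 of all 532. Proteins with zinc fingers of the C2H2 type carry rows of short repeats, each with a pair of histidines that hold the zinc ion, and in most such genes the last exon codes for the repeats.

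The most frequent word of 8 bases in the 38 sites was CAACATCA, in 10 sites of 7 genes (26.3%). It was in 11 of the other 524 exon sites (2.10%) and in 5 of the 3′UTR sites (0.691%), counts that are not tested since the word was picked from the 38. In all 10, it began at the first base of a codon, so that it opened with the codons CAA, for glutamine, and CAT, for histidine. Capitals mark this word in the sequences of the 7 genes. Those of ZNF850 show 4 of its 5 sites.
ZNF850 at chr19:36748290-36748312, minus strand: tcaaaacttactCAACATCAacg
ZNF850 at chr19:36749119-36749147, minus strand: acttactCAACATCAacaaatccatactg
ZNF850 at chr19:36749216-36749237, minus strand: ctcaacactacttCAACATCAg
ZNF850 at chr19:36750140-36750161, minus strand: ctcaacactaaatCAACATCAg
ZNF566 at chr19:36449328-36449349, minus strand: ctcaaactttactCAACATCAg
ZNF573 at chr19:37739275-37739295, minus strand: tcaaaactctttCAACATCAg
ZNF527 at chr19:37389663-37389686, plus strand: ctcatatcttaatCAACATCAaag
ZNF420 at chr19:37127443-37127467, plus strand: cctcacacctaacaCAACATCAaag
ZFP30 at chr19:37635168-37635193, minus strand: ctttcacaacttaccCAACATCAaag
ZNF184 at chr6:27451647-27451670, minus strand: ctCAACATCAaaaaactcacacag

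Each of these sequences occurred at 1 place in the genome outside the alternate contigs, by exact match. Near matches in other repeats were not counted, so the assignment of reads to a repeat was not tested. The other sites of the zinc finger genes with 3 or more are shown with capitals for the 10 leading tetramers again.
ZNF227 at chr19:44234744-44234767, plus strand: cattaaaataccttTCAAaTCAAg
ZNF227 at chr19:44235768-44235788, plus strand: ccACAAttcaccattaatatg
ZNF227 at chr19:44236110-44236132, plus strand: tTCAAatcttaAACTACaccaag
ZNF420 at chr19:37127358-37127383, plus strand: catACTTACTTatCTCAACAtTCAAg
ZNF420 at chr19:37127612-37127635, plus strand: CTCACAACTTattttaCATCatag
ZNF850 at chr19:36748965-36748985, minus strand: tacataccttaaTCAACATCg

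Without the zinc finger genes, a setting added after the data were seen, 75 tetramers were more frequent in 500 sites than in their windows and 147 less frequent. CAAC had an excess of 31.8 percentage points against 33.5 with all sites. The excess of CAAC over 3′UTR sites was 19.6 points (Fisher's exact test, adjusted p = 1.28e-11) without these genes and 20.5 with them.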

How the data were processed

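PAR-CLIP of YBX1 was performed in 2 replicates of HEK293 cells. Per the labels and methods, the authors trimmed reads with cutadapt 1.4.1, aligned them with the PARA-suite to GRCh38 and a transcriptome, called stranded sites with BMix and annotated them with HOMER (hg38). The deposited list gives positions, strand, gene and class but neither counts nor scores. How many reads lie behind a site is unknown, and Wilson intervals cover counting error only. The last base was taken as 1 before the listed end, because most sites have a G there on both strands and RNase T1 cuts after G.

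Sites were placed in GENCODE release 44 with python 3.11.15, pysam 0.24.0 and scipy 1.17.1. Windows 120 nt away in the spliced coding sequence were compared by exact McNemar tests, and 3′UTR sites by Fisher's exact tests, two-sided, with Benjamini-Hochberg adjustment over 256 tetramers or 10 properties. The tetramer tests were checked on simulated random sequences in which all bases were equally likely. This check does not cover the low G content of the sites or sites that share a gene. Places in the genome were exact matches and left out alternate contigs, a choice made after values with them were seen. Members and lists were chosen with earlier results of these data known. Named are genes with 3 or more exon sites, up to 4 genes per list, YBX1, CBX5, NFE2L1, the 10 leading tetramers and 5 in each direction against 3′UTR sites. Sequences are printed up to 30 nt. Other names were chosen after their values were seen. Some items the rule covers are not reported here.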

Additional observations from a re-analysis of the deposited data

How the results depend on the processing

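No paired analysis was possible because both replicates were pooled into 1 list, and none could be left out. The share of exon sites in coding exons was 98.6% with coding exons before 3′UTRs and 96.8% with 1 transcript per gene, against 71.9%. Against coding windows, 4 tetramers were more and 3 less frequent with RNase T1 windows, 83 were less frequent with sites extended by 10 nt, and 95 in the RNase T1 subset against windows 120 nt away (added after the data were seen). Against 3′UTR sites, 19 were more frequent with 1 site per gene, and 7 more and 9 less with sites wider than the median. The difference in a G before the site fell below the threshold at 3.96 points (1 site per gene), 4.36 (sequence once in the genome), 1.70 (wider sites), 2.68 (GENCODE classes) and 3.56 (widths from 18 to 30 nt). With GENCODE classes, a site of another class in the same gene differed by 17.7 points and the differing gene name by -14.2, and both passed the threshold. The latter reversed to 0.208 with wider sites (Fisher's exact test, adjusted p = 1). The causes were not tested, except that the wider, single and RNase T1 sets hold fewer sites. With alternate contigs counted, repeated sequences were in 3.74% of exon and 14.6% of 3′UTR sites (exact test, adjusted p = 3.42e-11). The remaining 96 values of such comparisons kept their direction and their side of the threshold. For the named tetramers and gene lists, 192 values did, 9 fell below the threshold (8 of them with RNase T1 windows) and 4 counts moved by more than 1.5 times.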
